A study of Homo sapiens with 6 samples.

Results

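The 39 genes described here encode the proteins of homologous recombination and of the Fanconi anemia pathway, together with the checkpoint kinases that act with them, and they were chosen by name from a table of 28563 genes. All 39 were present in the table and all 39 were expressed above the minimum used for testing, a mean of 0.5 FPKM over the 6 libraries. FPKM is the number of sequenced fragments per kilobase of gene, scaled to the size of the library. Comparisons of levels between genes depend on the gene length used, and those between libraries depend on the scaling. Cells labelled as the established human hepatocellular carcinoma line HepG2 were treated for 24 h with 336 µM polydatin (PD), a plant glucoside of resveratrol, or with the solvent DMSO alone. PD was dissolved in DMSO, so both groups received the solvent. Each group held 3 plates, and 1 poly(A) RNA library was sequenced from each. The study's methods give a slightly lower PD dose than the labels do. Because 1 cell line, 1 dose and 1 time were sampled, the replicates measure the spread between plates.

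Homologous recombination repairs a broken chromosome by copying the intact sister chromatid. The broken end is first trimmed to single-stranded DNA, BRCA1, BRCA2 and their partners then prepare that strand to invade the sister, and helicases and nucleases finally separate the joined molecules. The pathway is active mainly in S and G2 phase, when a sister exists, and many of its genes are transcribed in a cell-cycle-dependent manner. The Fanconi proteins act at DNA interstrand crosslinks, where a core ubiquitin ligase marks the FANCD2-FANCI pair and so directs nucleases and recombination to the lesion. Cells depend on both pathways to tolerate crosslinking drugs such as cisplatin.

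The libraries held between 16308476 and 18071632 fragments. Within a group they differed more than counting error alone would give, and libraries of different groups differed far more. The label was checked against liver markers, and most of these were near 0 or not in the table. Of 22 hepatocyte genes, 11 were in the table, and ALB, AFP and APOB were not. Every gene in the table had a value above 0 in some library. Only CPS1 and RBP4 of the hepatocyte genes reached 1 FPKM in any library, so that HNF4A, APOA1, SERPINA1 and TF all lay below it. The sum of the hepatocyte genes, nearly all of it CPS1, was 223 to 230 FPKM in DMSO and 108 to 113 FPKM in PD. Without CPS1 the sum was 1.31 to 1.47 FPKM in DMSO and 2.24 to 2.72 FPKM in PD. The epithelial markers summed to 95.4 to 101 FPKM in DMSO and 114 to 120 FPKM in PD. Nearly all of that sum was KRT8 (means of 50.1 FPKM in DMSO and 68.9 FPKM in PD) and KRT18 (46.5 and 47.7 FPKM). EPCAM (1.17 and 1.03 FPKM) and CDH1 (0.127 and 0.0343 FPKM) were low in both groups. The mesenchymal markers summed to 24.8 to 26.5 and 33.6 to 35.1 FPKM and the blood cell markers to 0.52 to 0.645 and 0.53 to 0.721 FPKM. The endothelial markers stayed at or below 0.0801 FPKM. The cells are therefore called by their label only, and the part of these markers in the results was not tested.

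More genes of this repair module rose than fell in PD. Of the 39 genes, 20 rose (51.3%), 3 fell (7.69%) and 16 did not pass the test, which was limma on log2(FPKM + 1) with Benjamini-Hochberg adjustment over all 14400 genes tested and a threshold of 0.05. Among all genes tested, 31.9% rose and 26.2% fell by the same rule. The median log2 difference of the 39 genes was 0.18, with quartiles of -0.00 and 0.35, against 0.01 over all genes. The differences were small: they ran from -0.28 to 0.90, no gene reached 2-fold on this scale, and 3.61% of all genes passed the test and reached 2-fold. In 29 of the 39 genes the 3 PD libraries lay entirely above or below the 3 DMSO libraries, 24 of them above and 5 below, and in all genes tested such separation was seen in 65.4%. All 23 genes that passed the test were separated in this way.

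The genes with the largest differences were the helicase BLM, the checkpoint adaptor CLSPN, the nuclease subunit EME1, the Fanconi core subunit FANCG and the motor protein RAD54L. On the FPKM scale itself, 6 genes rose to at least 1.5 times their DMSO level, these 5 and RAD51D. The order of levels among the 39 genes was nearly kept (Spearman's rho of 0.94 between the DMSO and PD means over these 39 genes, which share the same libraries). EXO1 was the most abundant in both groups and RAD54B the least, and the median level was 6.72 FPKM in DMSO and 8.88 FPKM in PD. In DMSO, 13 genes exceeded 10 FPKM.

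**Figure D1:**
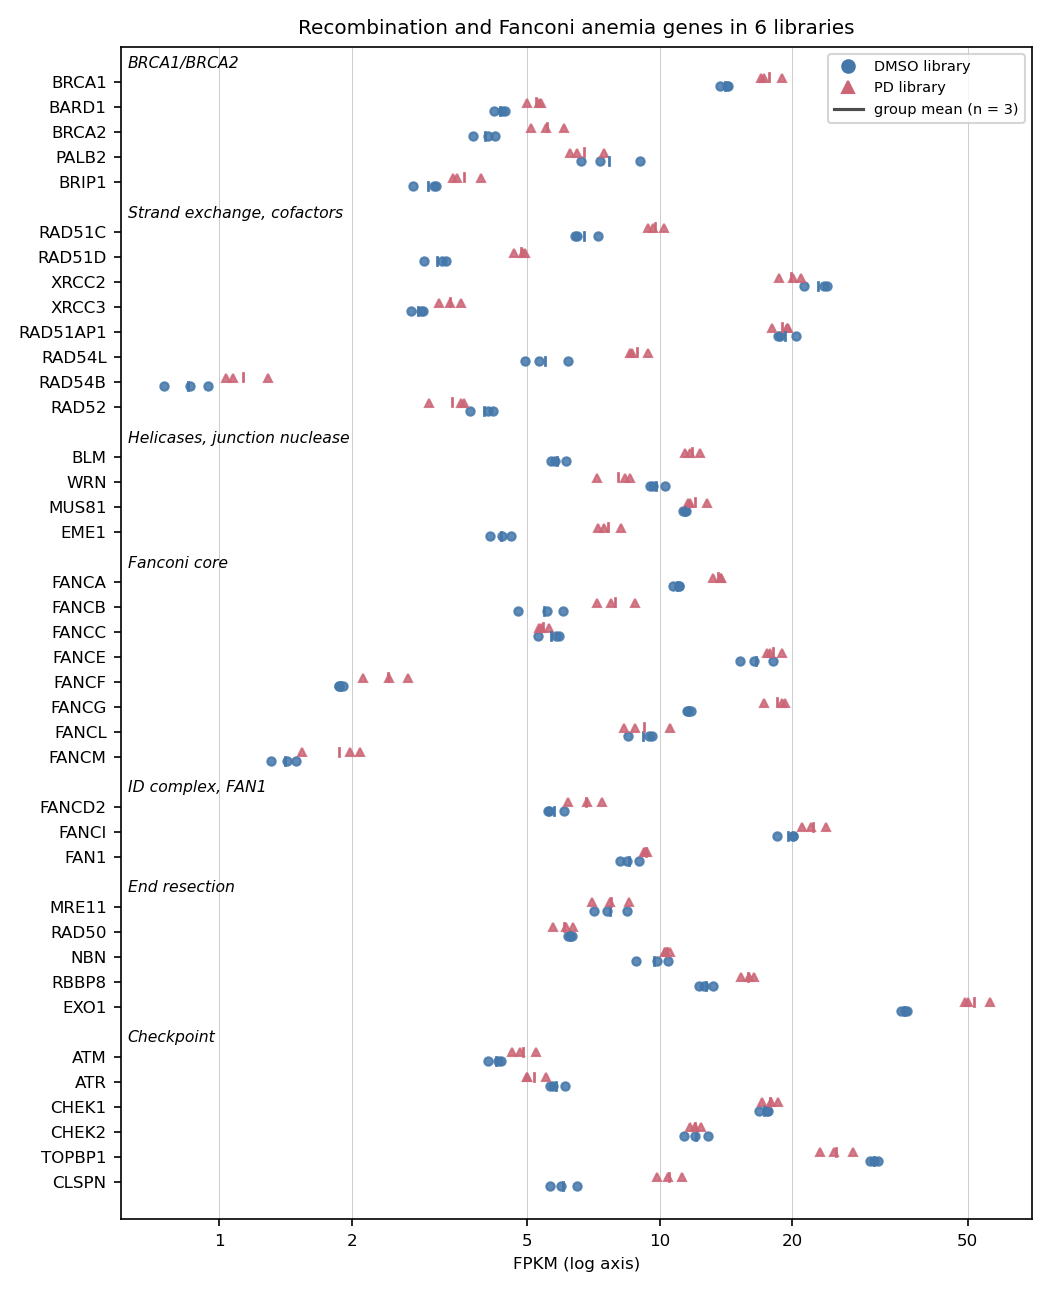
Levels of the 39 genes in each of the 6 libraries, in FPKM on a log axis, grouped by role. Blue circles are DMSO libraries, red triangles are PD libraries, and short vertical lines are group means (n = 3). The PD points of BLM, CLSPN, EME1, FANCG and RAD54L lie clear above their DMSO points, while those of TOPBP1, WRN and XRCC2 lie below.

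The depth behind these values was moderate. The FPKM values were whole multiples of the value of 1 fragment, so the fragments could be worked back, and each gene had between 69 and 4199 fragments in a library. RAD54B was the only gene with fewer than 100 in any library. The spread between plates was close to 5% (median coefficient of variation of 5.1% in DMSO and 5.9% in PD). For the 16 genes that did not pass, the 95% intervals of the log2 difference lay between -0.41 and 0.47, so a 2-fold change on the log2(FPKM + 1) scale was outside every one of them. The RNA came from whole plates, so a change in RNA per cell cannot be told apart from a change in the share of cells in a phase of the cell cycle.

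**Figure D2:**
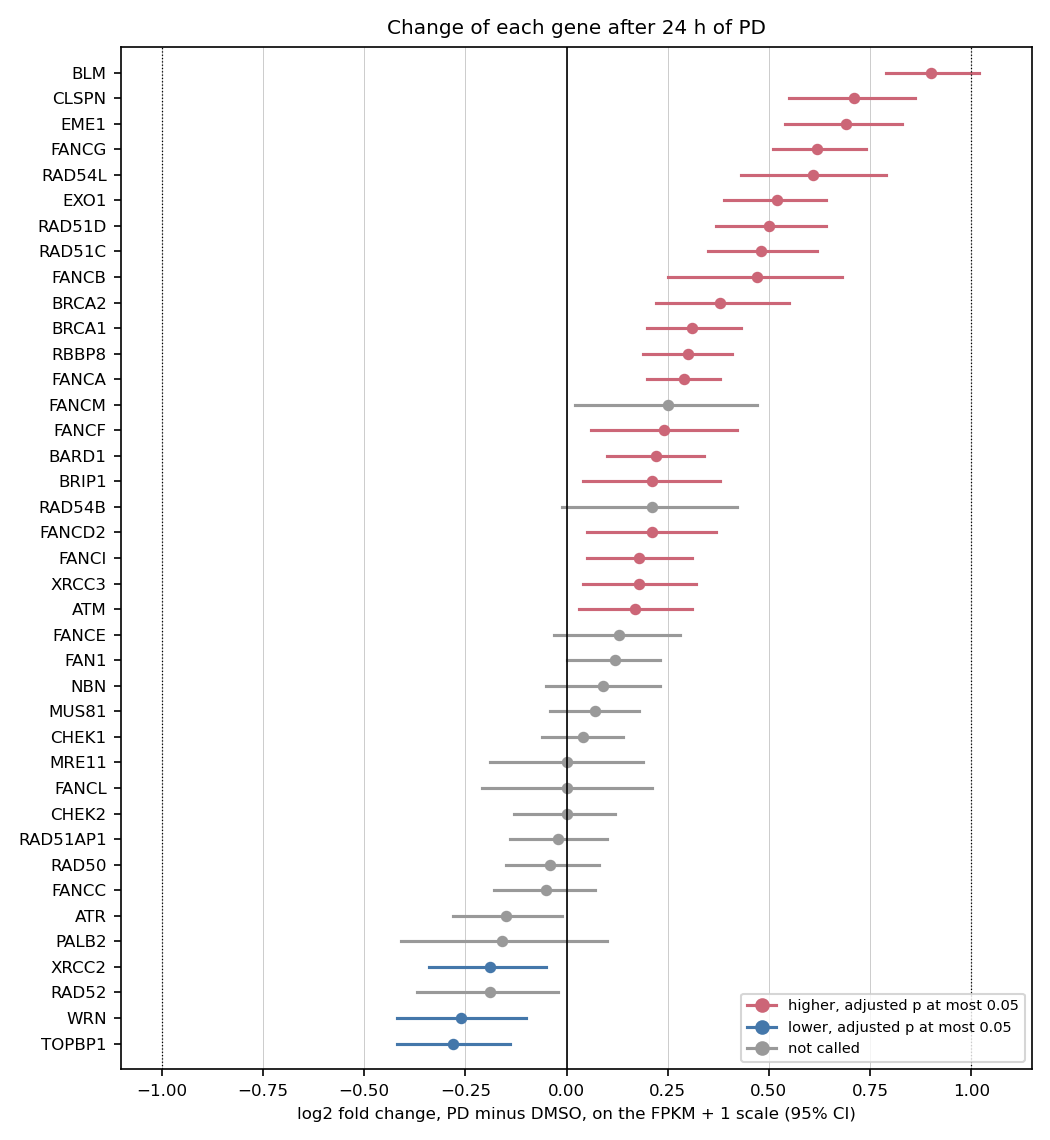
Log2 difference, PD minus DMSO, of each gene on the log2(FPKM + 1) scale, with its 95% interval from limma. Red genes rose (20), blue genes fell (3) and grey genes did not pass the test (16), and dotted lines mark 2-fold. The values run from -0.28 for TOPBP1 to 0.90 for BLM.

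Because many recombination genes are read by cell-cycle transcription factors, the letters in front of their starts are shown before the values. Of the 39 genes, 35 matched a RefSeq promoter (GRCh38.p14, 250 bases before to 50 bases after the start), and not WRN, NBN, RAD54B and FANCI. E2F factors bind letters such as TTTCCCGC, TTTCGCGC, TTTGCCGC and TTTGGCGC, and these were searched on both strands. They stood in 7 of the 35 promoters (20%), against 3.33% of all 27305 promoters. The comparison promoters, here and below, were not matched to the 35 for expression or GC content. The 7 were divided between the outcomes: 4 of 19 genes that rose (CLSPN, EXO1, FANCA and FANCD2) and 3 of the 16 others (FANCC, which did not pass, and XRCC2 and TOPBP1, which fell). The cell-cycle element TTTGAA was found in 3 promoters (8.57%, against 15.4% of all), and CCAAT, the letters of the factor NF-Y, in 15 (42.9%, against 35.7%). CCAAT stood in front of 8 of the 19 genes that rose and 7 of the 16 others. No 2 of these motifs overlapped in the 35 promoters. A match describes the letters only.

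The E2F letters, in capitals, are shown within 30 bases on the strand of the gene for 3 genes that rose, 2 that fell and 1 that did not pass, because the same letters accompany every outcome. CLSPN is at chr1:35769965-35769994 (minus strand), EXO1 at chr1:241848197-241848226 (plus), FANCD2 at chr3:10026424-10026453 (plus), TOPBP1 at chr3:133661930-133661959 (minus), XRCC2 at chr7:152676102-152676131 (minus) and the nearer of the sites of FANCC at chr9:95317737-95317766 (minus).
CLSPN: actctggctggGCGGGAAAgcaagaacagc
EXO1: aaaggtcagccTTTCGCGCgctgtgtaggc
FANCD2: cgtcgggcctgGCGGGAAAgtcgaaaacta
TOPBP1: ccgcgcggttgGCGCGAAAgtcggttcccg
XRCC2: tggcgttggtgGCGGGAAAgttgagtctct
FANCC: ttcgtcggaatTTTCCCGCgacgccgcggg
The letters of CLSPN, FANCD2 and XRCC2 are the same 8 bases read on the opposite strand of TTTCCCGC, while CLSPN and FANCD2 rose and XRCC2 fell.

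CCAAT letters, in capitals on either strand (CCAAT or ATTGG), are shown in the 150 bases before the start of BLM and CLSPN, whose differences were the largest, and of CHEK2, whose difference was near 0. BLM is at chr15:90717196-90717345 (plus strand), CLSPN at chr1:35769979-35770128 (minus) and CHEK2 at chr22:28741821-28741970 (minus).
BLM: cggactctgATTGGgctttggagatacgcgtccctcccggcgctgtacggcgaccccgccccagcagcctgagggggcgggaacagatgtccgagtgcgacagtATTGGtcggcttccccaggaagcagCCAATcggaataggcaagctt
CLSPN: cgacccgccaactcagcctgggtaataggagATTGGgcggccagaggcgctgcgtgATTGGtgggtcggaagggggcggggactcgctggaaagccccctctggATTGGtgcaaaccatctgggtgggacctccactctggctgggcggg
CHEK2: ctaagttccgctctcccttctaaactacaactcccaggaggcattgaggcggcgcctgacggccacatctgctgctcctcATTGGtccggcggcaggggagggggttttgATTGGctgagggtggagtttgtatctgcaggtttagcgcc
BLM and CLSPN each held 3 copies in the searched window. CHEK2 also held 3, of which the farthest from the start is outside the stretch shown.

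Of the 5 genes that build the BRCA1 and BRCA2 complexes, 4 rose in PD. This count and those of the other small groups below stand beside all genes tested, of which 31.9% rose and 26.2% fell. BRCA1, the ubiquitin ligase that promotes end resection and recruits the partner proteins, measured 14.3, 14.2 and 13.7 FPKM in DMSO and 18.9, 16.97 and 17.2 FPKM in PD. The groups did not overlap, and its log2 difference was 0.31 ± 0.05 (SE, n = 3 per group, limma adjusted p = 0.0013). BARD1, the obligate partner of BRCA1 in the ligase, moved alongside, from 4.45, 4.39 and 4.21 FPKM to 5.33, 5.01 and 5.37 FPKM, a log2 difference of 0.22 ± 0.05 (limma adjusted p = 0.0072). BRCA2, which acts after resection to start strand invasion, had the largest difference of the group. Its levels were 4.07, 4.22 and 3.77 FPKM in DMSO and 6.06, 5.52 and 5.10 FPKM in PD, a log2 difference of 0.38 ± 0.07 (limma adjusted p = 0.0025).

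PALB2, the bridge between BRCA1 and BRCA2, did not pass the test. Its DMSO levels of 9.05, 7.31 and 6.64 FPKM overlapped its PD levels of 6.48, 6.25 and 7.48 FPKM, and the 95% interval of its log2 difference ran from -0.41 to 0.10. BRIP1, the helicase bound by BRCA1, rose from 3.11, 3.08 and 2.75 FPKM to 3.94, 3.48 and 3.39 FPKM with a log2 difference of 0.21 ± 0.07 (limma adjusted p = 0.037). This call was lost when any library but PD replicate 3 was left out, with limma adjusted p of 0.053 to 0.11.

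The genes RAD51C, RAD51D, XRCC2 and XRCC3 and the strand exchange cofactors moved in both directions. The proteins of the first 4 form small complexes that assist strand exchange. RAD51C rose from 6.41, 6.51 and 7.23 FPKM to 9.66, 9.40 and 10.2 FPKM, and its log2 difference was 0.48 ± 0.06 (limma adjusted p = 0.00032). RAD51D rose from 3.27, 2.91 and 3.20 FPKM to 4.67, 4.95 and 4.89 FPKM, a log2 difference of 0.50 ± 0.06 (limma adjusted p = 0.00026). Both lay entirely above the DMSO libraries. XRCC2, which binds RAD51D directly in the same complex, was the more abundant of that pair and went the other way. It measured 23.6, 23.9 and 21.2 FPKM in DMSO and 20.1, 18.7 and 20.95 FPKM in PD, the highest PD level standing just under the lowest DMSO level, with a log2 difference of -0.19 ± 0.06 (limma adjusted p = 0.026). The XRCC2 call was lost without DMSO replicate 1 or 2 or PD replicate 1 or 2, with limma adjusted p of 0.056 to 0.085. XRCC3, the partner of RAD51C, rose from 2.88, 2.73 and 2.90 FPKM to 3.54, 3.34 and 3.15 FPKM (log2 difference of 0.18 ± 0.06, limma adjusted p = 0.036). XRCC3 lost its call without any library but PD replicate 3, with limma adjusted p of 0.058 to 0.10, and its difference became -0.01 once a curve on GC content and exon length was subtracted.

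The motor RAD54L, which drives strand invasion, had the largest difference of these cofactors. It rose from 4.94, 5.33 and 6.19 FPKM to 9.42, 8.65 and 8.55 FPKM, and every PD level exceeded the highest DMSO level by more than the DMSO range (log2 difference of 0.61 ± 0.08, limma adjusted p = 0.00045). Its relative RAD54B was listed at 0.752 to 0.943 FPKM in DMSO and 1.04 to 1.29 FPKM in PD, which did not overlap but missed the threshold (limma adjusted p = 0.092). RAD51AP1, which stimulates strand exchange, was one of the more abundant genes at 18.6 to 20.3 FPKM in DMSO and 18.0 to 19.6 FPKM in PD, and the 95% interval of its log2 difference was -0.14 to 0.10. RAD52, an annealing protein, measured 3.72 to 4.19 FPKM in DMSO and 2.995 to 3.6 FPKM in PD, groups that did not overlap but missed the threshold (log2 difference of -0.19, limma adjusted p = 0.062).

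The helicases BLM and WRN, related members of the RecQ family that unwind recombination intermediates, changed in opposite directions. BLM was listed at 5.80, 5.66 and 6.12 FPKM in DMSO and at 12.4, 11.7 and 11.4 FPKM in PD. Its mean level became 2.02 times the DMSO mean, and the log2 difference on the log2(FPKM + 1) scale was 0.90 ± 0.05, with a 95% interval of 0.79 to 1.02 (limma adjusted p = 1e-05). In the order of levels among the 39 genes BLM moved from place 23 to place 14. WRN measured 9.66, 10.3 and 9.52 FPKM in DMSO and 8.57, 7.20 and 8.34 FPKM in PD, a log2 difference of -0.26 ± 0.07 (limma adjusted p = 0.013), and its mean level fell by 18.2%. WRN was thus the more abundant of the pair in DMSO and BLM in PD.

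MUS81 and EME1 form the nuclease that cuts joined DNA molecules. EME1, the non-catalytic subunit, rose from 4.11, 4.6 and 4.38 FPKM to 7.26, 8.19 and 7.47 FPKM, with a log2 difference of 0.69 ± 0.06 (limma adjusted p = 7.8e-05). The catalytic subunit MUS81 measured 11.3, 11.5 and 11.4 FPKM in DMSO and 11.7, 11.6 and 12.8 FPKM in PD, a log2 difference of 0.07 with a 95% interval of -0.04 to 0.18 that did not pass the test. EME1 shares exon sequence with LRRC59 on the opposite strand, and MUS81 with CFL1 and EFEMP2. Whether strand was used in counting is not given in the sources used here, so reads from such neighbours cannot be told apart.

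Of the 8 core complex genes 4 rose and none fell. FANCG, a scaffold subunit of the core ligase, was listed at 11.6, 11.6 and 11.8 FPKM in DMSO, a spread of about 1%, and at 17.2, 18.97 and 19.3 FPKM in PD. Its mean reached 1.59 times the DMSO mean, with a log2 difference of 0.62 ± 0.05 (limma adjusted p = 4.3e-05). FANCA, its direct partner, measured 10.7, 11.1 and 11.1 FPKM in DMSO and 13.2, 13.8 and 13.8 FPKM in PD (log2 difference of 0.29 ± 0.04, limma adjusted p = 0.00057). The 2 genes started at nearly the same level, and FANCG had the larger difference, although the 2 differences were not tested against each other. FANCB, which sits with the catalytic subunit, rose from 6.05, 5.55 and 4.78 FPKM to 8.78, 7.77 and 7.19 FPKM (log2 difference of 0.47 ± 0.09, limma adjusted p = 0.0038). FANCF, an adaptor, was low at 1.91, 1.87 and 1.88 FPKM in DMSO and 2.13, 2.43 and 2.69 FPKM in PD (log2 difference of 0.24 ± 0.08, limma adjusted p = 0.032). The FANCF call was lost without any library but PD replicate 1, with limma adjusted p of 0.065 to 0.11.

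FANCL, the catalytic ubiquitin ligase subunit itself, had a log2 difference of 0.00 with a 95% interval of -0.21 to 0.21. Its levels were 9.46, 9.60 and 8.48 FPKM in DMSO and 10.6, 8.80 and 8.29 FPKM in PD, which overlapped. FANCC (5.31 to 5.91 FPKM in DMSO and 5.33 to 5.60 FPKM in PD) and FANCE (15.2 to 18.1 and 17.6 to 18.96 FPKM), which contact each other in the complex, also overlapped between groups. FANCM, the DNA translocase that anchors the core complex at the lesion, measured 1.31, 1.43 and 1.498 FPKM in DMSO and 2.09, 1.98 and 1.54 FPKM in PD, and its log2 difference of 0.25 missed the threshold (limma adjusted p = 0.057).

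The substrates of the core complex rose slightly and together. FANCD2 measured 5.60, 5.57 and 6.06 FPKM in DMSO and 7.42, 6.19 and 6.83 FPKM in PD, with a log2 difference of 0.21 ± 0.07 (limma adjusted p = 0.033). FANCI, its partner in the clamp that closes on DNA, measured 20.03, 18.5 and 20.1 FPKM in DMSO and 23.8, 21.1 and 22.1 FPKM in PD, with a log2 difference of 0.18 ± 0.06 (limma adjusted p = 0.024). The groups of both genes were separate, but by little. The FANCD2 call was lost without DMSO replicate 1 or 2 or PD replicate 1 or 3 (limma adjusted p of 0.083 to 0.093), and that of FANCI without DMSO replicate 2 or PD replicate 1 or 3 (0.055 to 0.072). FAN1, a nuclease recruited by the marked pair, was at 8.12 to 8.97 FPKM in DMSO and 9.24 to 9.37 FPKM in PD and did not pass (limma adjusted p = 0.07).

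Of the 5 end resection genes 2 rose and none fell. MRE11, RAD50 and NBN, the complex that finds the break and makes the first incision, all overlapped between groups. Their log2 differences were 0.00 (95% interval of -0.19 to 0.19) for MRE11, -0.04 (-0.15 to 0.08) for RAD50 and 0.09 (-0.05 to 0.23) for NBN. None of these passed the test, but NBN rose once a curve on GC content and exon length was subtracted (log2 difference of 0.25, limma adjusted p = 0.01). RBBP8, also called CtIP, which activates that nuclease in S and G2 phase, rose from 12.6, 13.2 and 12.3 FPKM to 16.4, 15.3 and 16.0 FPKM (log2 difference of 0.30 ± 0.04, limma adjusted p = 0.00095). EXO1, the long-range exonuclease, rose from 36.4, 35.3 and 36.0 FPKM to 56.1, 49.3 and 50.02 FPKM, and its mean level reached 1.44 times the DMSO mean (log2 difference of 0.52 ± 0.05, limma adjusted p = 0.00013). EXO1 carries E2F letters just after its start, as shown above.

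Among the checkpoint genes the kinases moved little, and the proteins that activate ATR or relay its signal moved in opposite directions. CLSPN, or claspin, which brings CHEK1 to ATR, rose from 5.98, 6.51 and 5.64 FPKM to 11.3, 10.4 and 9.85 FPKM, a log2 difference of 0.71 ± 0.07 (limma adjusted p = 9.3e-05) and 1.74 times the DMSO mean. TOPBP1, which switches ATR on and was the second most abundant of the 39 genes, was listed at 30.6, 31.4 and 29.99 FPKM in DMSO and at 27.4, 23.2 and 24.8 FPKM in PD. Its log2 difference of -0.28 ± 0.06 (limma adjusted p = 0.0055) was the lowest of the 39 genes. Both genes carry E2F letters within a few bases of their starts, as the sequences above show. ATM, the kinase activated at double-strand breaks, measured 4.08, 4.36 and 4.29 FPKM in DMSO and 5.25, 4.82 and 4.63 FPKM in PD (log2 difference of 0.17 ± 0.06, limma adjusted p = 0.04), a call that was lost without any library but PD replicate 3 (limma adjusted p of 0.064 to 0.12).

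ATR, the kinase of stalled forks, measured 5.72, 5.65 and 6.11 FPKM in DMSO and 5.52, 5.00 and 5.00 FPKM in PD, and its log2 difference of -0.15 missed the threshold (limma adjusted p = 0.06). Its target CHEK1 measured 17.5, 17.6 and 16.8 FPKM in DMSO and 17.9, 17.1 and 18.6 FPKM in PD, with a 95% interval of the log2 difference of -0.06 to 0.14. CHEK2, the corresponding target of ATM, measured 12.1, 12.9 and 11.4 FPKM in DMSO and 11.7, 12.0 and 12.4 FPKM in PD, with an interval of -0.13 to 0.12. In both kinases the groups overlapped. CHEK2 has 7 annotated pseudogenes, among which its reads could be divided, and CHEK1 shares exon sequence with STT3A on its own strand, so these levels are uncertain. BRCA1, FANCD2, RBBP8, MRE11, RAD51AP1 and RAD52 have 1 annotated pseudogene each, so the same limit holds for their levels.

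The ratio of the RNA levels, in FPKM, was computed in each library for 7 pairs of genes, chosen after the values were seen. The proteins of each pair work together or are related, but no protein was measured here. In 2 of them, BLM with WRN and RAD51D with XRCC2, 1 gene rose and the other fell. With 3 libraries against 3, the exact permutation test cannot give a two-sided p below 0.10, which adjusts to 0.14 over the 7 pairs. The BLM to WRN ratio was 0.598 ± 0.0464 (SD, n = 3) in DMSO and 1.48 ± 0.131 in PD, or 2.47 times as high. RAD51D to XRCC2 went from 0.137 ± 0.0145 to 0.244 ± 0.0184, or 1.78 times as high. A further 3 pairs had ratios that did not overlap between groups. They were CLSPN to CHEK1 (0.349 ± 0.0183 and 0.590 ± 0.0523), EME1 to MUS81 (0.383 ± 0.0189 and 0.636 ± 0.0633) and BRCA2 to PALB2 (0.532 ± 0.0712 and 0.833 ± 0.134). Each of these 5 pairs had an exact permutation p of 0.10, the smallest possible, and an adjusted p of 0.14. Any ratio separate between the groups gives this p with 3 libraries in each, so the test cannot decide whether these ratios differed.

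The remaining pairs kept their proportion more closely. The BRCA1 to BARD1 ratio was 3.24 ± 0.0254 in DMSO and 3.38 ± 0.17 in PD (exact permutation p = 0.3, adjusted 0.35), and that of FANCD2 to FANCI was 0.294 ± 0.0128 and 0.305 ± 0.00974 (exact permutation p = 0.4, adjusted 0.4). In both of these pairs each gene rose, and the ratio changed by 1.04 times.

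**Figure D3:**
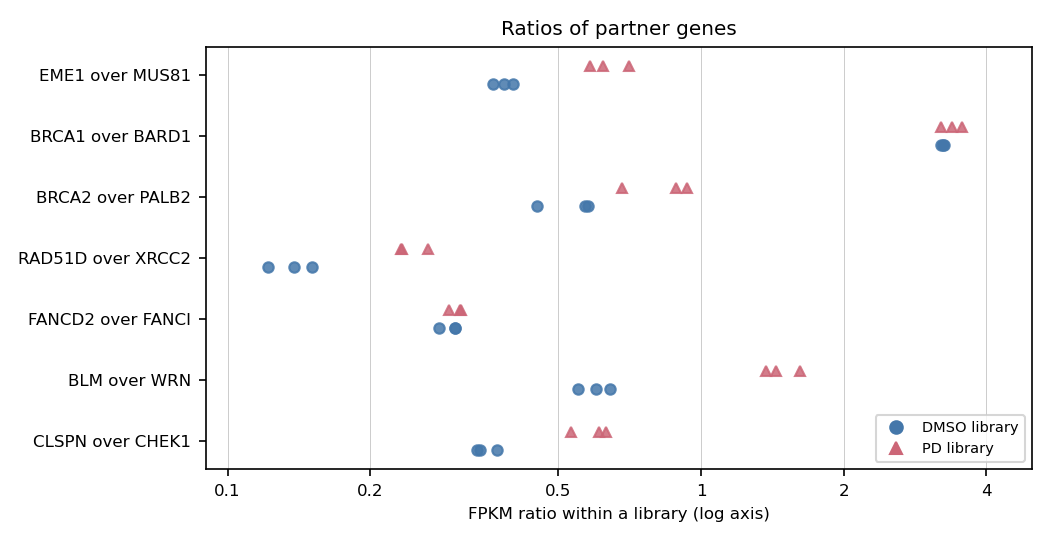
Ratio of the FPKM levels of 7 partner pairs in each library, on a log axis, with DMSO libraries as blue circles and PD libraries as red triangles. The ratios of BLM to WRN and RAD51D to XRCC2 are separate between groups, while those of BRCA1 to BARD1 and FANCD2 to FANCI overlap.

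The wider pathway was described with a list of further recombination and Fanconi genes. Of these, 57 were tested, 27 rose (47.4%, against 31.9% of all genes) and 8 fell (14.0%, against 26.2%), and their median log2 difference was 0.11 against 0.01 over all genes. SWI5 and SFR1 encode a pair of proteins that assist strand exchange. SWI5 rose from 23.4, 23.7 and 25.8 FPKM to 49.1, 46.2 and 47.8 FPKM (log2 difference of 0.95 ± 0.05, limma adjusted p = 6.6e-06), and SFR1 from 4.25, 3.26 and 2.77 FPKM to 7.48, 6.96 and 7.14 FPKM (0.90 ± 0.11, limma adjusted p = 0.00042).

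Other repair pathways were counted in the same way, beside the 31.9% of all genes tested that rose and the 26.2% that fell. Non-homologous end joining is the route that seals breaks without a template. Of its 11 tested genes 2 rose (18.2%) and 4 fell (36.4%), with a median log2 difference of -0.07. XRCC5, the Ku80 end-binding subunit, fell from 50.1, 51.9 and 50.9 FPKM to 36.9, 35.1 and 36.1 FPKM (log2 difference of -0.49 ± 0.03, limma adjusted p = 2.2e-05). PRKDC, the DNA-dependent kinase that it recruits, fell from 88.6, 90.2 and 87.8 FPKM to 66.5, 62.6 and 63.8 FPKM (-0.46 ± 0.03, limma adjusted p = 2.6e-05). Base excision repair had 11 genes higher (61.1%) and 3 lower (16.7%) of 18, with a median of 0.21. Its share that rose and its median were both above those of the 39 genes (51.3% and 0.18). Nucleotide excision repair had 8 higher (44.4%) and 2 lower (11.1%) of 18, with a median of 0.08. Mismatch repair had 1 higher and 1 lower (14.3% each) of 7, with a median of -0.01. Among these 3 lists the largest differences were those of the glycosylases MPG (0.82) and MUTYH (0.79) in base excision repair, and CETN2 (0.70) in nucleotide excision repair.

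Cell-cycle genes moved in the same libraries, and their values stand beside those of the repair genes because recombination genes are transcribed with the cycle. Of 42 S phase genes 27 rose and 8 fell (median log2 difference of 0.35), led by the replication licensing factor CDC6 (17.3 ± 0.532 FPKM in DMSO and 39.6 ± 0.841 FPKM in PD, SD, n = 3). Of 40 G2/M genes 34 fell and 2 rose (median of -0.68), led by the mitotic kinase PLK1 (27.2 ± 0.371 FPKM in DMSO and 9.003 ± 0.333 FPKM in PD). Of 20 p53 target genes 14 rose and 2 fell (median of 0.29), led by the cell-cycle inhibitor CDKN1A (50.1 ± 2.099 FPKM in DMSO and 111 ± 8.42 FPKM in PD). The median of the 39 genes, 0.18, lay between those of the S phase and the G2/M lists. The medians of all genes tested (0.01), of the p53 targets (0.29) and of each other repair list above lay there too. This position therefore does not set the 39 genes apart. The part of the cell cycle in the differences of the repair genes was not tested.

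**Figure D4:**
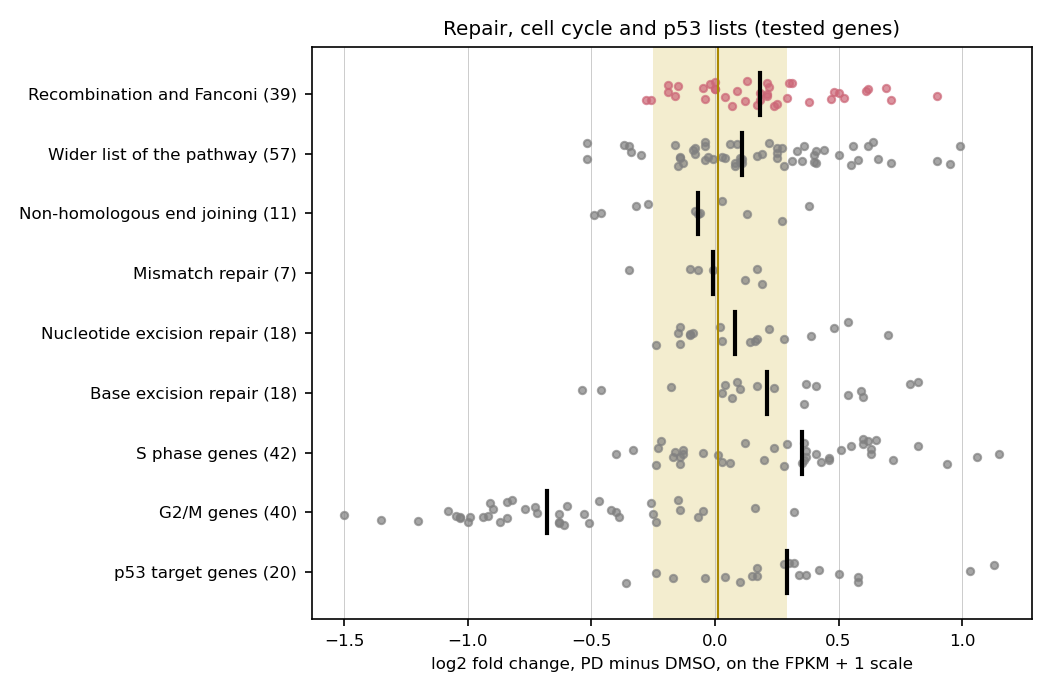
Log2 differences, PD minus DMSO, of the genes of each list on the log2(FPKM + 1) scale, 1 point per gene, with a black bar at each list's median. The shaded band spans the quartiles of all 14400 genes tested and the line in it their median of 0.01. The 39 genes have a median of 0.18, the S phase genes of 0.35, the G2/M genes of -0.68 and the wider recombination and Fanconi list of 0.11.

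Within the 39 genes, the size of the difference had little relation to the gene's properties. These genes share the libraries and are not independent replicates. Across them, Pearson's r of the log2 difference was 0.16 with GC content and -0.22 with the log of the DMSO level. With the log of the gene length worked back from the FPKM, which is not the exon length of the curve above, it was -0.05. Exons of another gene overlap 30 of the 39, in 26 cases on the opposite strand. The 9 genes without such an overlap, RAD51C, RAD51AP1, FANCE, BRIP1, BARD1, BRCA2, FANCM, XRCC2 and MRE11, had a median log2 difference of 0.21, and 4 of them rose and 1 fell.

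The scale of the libraries affected the balance of the calls. With the FPKM values rescaled by median-of-ratios factors, 16 of the 39 genes rose and 5 fell, and with upper-quartile factors 14 rose and 5 fell. The added genes that fell were RAD52 and ATR. BRIP1, XRCC3, FANCD2 and ATM lost their calls under both scalings, and FANCF and FANCI lost theirs with upper-quartile factors. Over all genes the same factors also lowered the number that rose and raised the number that fell. Median-of-ratios factors gave 4259 that rose and 4146 that fell, and upper-quartile factors 4167 and 4264, against 4588 and 3780 as deposited. In 16 genes the call held under all 13 alternatives tried. These were BRCA1, BARD1, BRCA2, RAD51C, RAD51D, RAD54L, BLM, EME1, FANCA, FANCB, FANCG, RBBP8, EXO1 and CLSPN, which rose, and WRN and TOPBP1, which fell.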

How the data were processed

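RNA-seq was carried out on 3 DMSO and 3 PD plates. The authors aligned poly(A) reads to hg38 with HISAT2 and counted genes with HTSeq 0.6.0, per the labels, and deposited FPKM for 28563 genes; whether strand was used is not given in the sources used here. Ensembl identifiers were matched to GENCODE release 44 symbols (28161 matched). Whole fragments were worked back from the FPKM (whole to within 0.001 fragments for all genes but 1) and were used in an alternative (limma-voom).

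Genes averaging 0.5 FPKM or more were tested on log2(FPKM + 1), a scale that understates changes of low genes, by limma 3.58.1 (trend; R 4.3.3) over the 6 libraries, with Benjamini-Hochberg adjustment and a threshold of 0.05. Because FPKM were deposited, a log-scale test was the main one and the fragments served as an alternative. Ratios were tested by two-sided exact permutation (scipy 1.17.1). The scripts were tested on simulated data.

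The 39 genes and all lists were chosen with earlier results of these data known. All 39 could be named, and of each other list the 3 largest differences that passed, except 1 gene that is not reported here. The replicates are separate plates of 1 line, so p-values measure the spread between plates. Alternatives were a pseudocount of 0.1, no filter, a replicate block, each library left out, other scalings, voom and a GC and length curve. Partner ratios were added after the data were seen.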

Additional observations from a re-analysis of the deposited data

How the results depend on the processing

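Of the 23 genes of the module that passed the test, 16 passed under all 13 alternatives. The other calls (BRIP1, XRCC2, XRCC3, FANCF, FANCD2, FANCI and ATM) were all lost without the filter, which adds low genes to the test. The number that rose was 20 with a pseudocount of 0.1, 14 without a filter on FPKM, 14 to 18 with 1 library left out (lowest without DMSO replicate 2), 22 with voom on fragments and 22 after the GC and length curve. The number that fell was 3 as tested here, 2 to 3 with 1 library left out, and 5 with median-of-ratios scaling, with upper-quartile scaling and with voom. Over all genes, 4588 rose and 3780 fell of the 14400 in the main test. With a pseudocount of 0.1 these were 4570 and 3748 of 14400, and without the filter 4460 and 3600 of 28563. The lower count without the filter thus stands beside a lower share over all genes. BLM reached 2-fold with a pseudocount of 0.1 and with voom; no other gene of the module did. The median log2 difference of the module was 0.239 with voom, whose scale has no pseudocount of 1 FPKM. Over all genes, 698 rose and 550 fell by at least 2-fold with a pseudocount of 0.1, and 1023 and 733 with voom, against 294 and 226.

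Replicate numbers did not pair the samples: the correlations of same-numbered deviations were -0.027, -0.005 and 0.09. With the replicate block, 17 genes of the module rose and 2 fell, the calls of XRCC2, XRCC3, FANCF and ATM being lost.

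The sign changed for 1 gene that had passed the test, XRCC3, and for 8 that had not, and none of them passed under the setting that turned it. FANCL was at -1.6e-05 with a pseudocount of 0.1, -0.03 with median-of-ratios and -0.04 with upper-quartile scaling, and -0.09 to 0.07 with 1 library left out. MRE11 was at -0.03 and -0.04 with the same scalings and -0.06 to 0.07 with 1 library left out. CHEK1 was at -0.0022 with upper-quartile scaling. With the GC and length curve XRCC3 was at -0.01, MUS81 at -0.09, FANCE at -0.02, RAD50 at 0.01 and RAD51AP1 at 0.08. With 1 library left out, CHEK2 ranged from -0.05 to 0.04 and RAD51AP1 from -0.04 to 0.02. The causes were not tested. Some genes that missed the threshold passed it elsewhere: RAD54B and FANCM rose with voom and after the GC and length curve, NBN rose after that curve, FANCM without PD replicate 3, FAN1 without DMSO replicate 1 and FANCE without DMSO replicate 3. RAD52 fell with both scalings, voom and the curve, and ATR with both scalings, voom and without PD replicate 1. RAD54B had the fewest fragments of the module.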
